A study of Mus musculus with 3 samples.

Results

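The mitogen-activated protein kinase-interacting kinases (MNKs), the cap-binding protein eIF4E with its relatives, and the eIF4E-binding proteins (4E-BPs) form a small module that sits at the start of cap-dependent translation. The module was followed here through the mRNA levels of 8 genes, taken by gene symbol from the 24119 genes of the deposited tables: the kinases Mknk1 and Mknk2, the cap-binding proteins Eif4e, Eif4e2 and Eif4e3, and the binding proteins Eif4ebp1, Eif4ebp2 and Eif4ebp3. All 8 symbols were found in each of the 3 tables. In 7 of them the level reached at least 100 normalized counts in some library, and Eif4ebp3 stayed at 10 reads or fewer.

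Islet RNA was sequenced from male mice of the C57BL/6 strain, with 3 groups and 1 library per group. ND mice received the diet labelled ND and DMSO, the vehicle, by oral gavage. HFD_DMSO mice received a high-fat diet and DMSO, and HFD_CGP mice received a high-fat diet and CGP 57380. Gavage lasted 1 month in all groups, and the labels add "4 month" without saying whether this is age or time on diet. The labels do not give the number of mice behind a library.

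As background, MNK1 and MNK2 are switched on by the ERK and p38 MAP kinases, dock on the scaffold eIF4G and phosphorylate eIF4E on a serine near its C-terminus. The 4E-BPs hold eIF4E away from eIF4G until the kinase complex mTORC1 phosphorylates them. In islets 4E-BP1 is known as a target gene of the stress factor ATF4. CGP 57380 inhibits the MNK kinases, so its direct effect is on phosphorylation, which mRNA levels do not measure.

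The coding sites at which this module meets were read from GENCODE M21 on GRCm38, and they are shown because they define the members' roles. In Eif4e (chr3:138555457-138555492, plus strand) codons 203 to 214 hold the serine codon phosphorylated by MNK, codon 209, in capitals. In Eif4ebp1 (chr8:27273328-27273366, plus strand) and Eif4ebp2 (chr10:61435060-61435098, minus strand) the capitals mark the tyrosine codon and, after a gap of 4 codons, the leucine codon and the hydrophobic codon of the eIF4E-binding motif, at codons 53 to 59 and 54 to 60.
Eif4e: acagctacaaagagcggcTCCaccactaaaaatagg
Eif4ebp1: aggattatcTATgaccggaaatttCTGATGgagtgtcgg
Eif4ebp2: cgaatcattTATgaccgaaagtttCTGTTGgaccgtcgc

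Reads on genes numbered 17129042 in ND, 16297644 in HFD_DMSO and 17623816 in HFD_CGP. Their makeup differed: Ins1 and Ins2 took 15.3% of the reads in ND, 43.5% in HFD_DMSO and 19.1% in HFD_CGP. All 10 beta-cell markers had reads in each library, but they did not move as one: in HFD_DMSO against ND Ins1 and Ins2 were called higher, Slc2a2 (-2.80), Slc30a8 (-1.84) and G6pc2 (-1.05) lower, and the list's median log2 fold change was -0.39. Markers of other cells moved too: the summed level of 14 acinar markers was 13803, 4993 and 149 scaled CPM in ND, HFD_DMSO and HFD_CGP, that of 6 alpha-cell markers 21951, 5639 and 10918, and that of 10 stromal markers 167, 637 and 250. The sums were 701, 1384 and 734 for 10 duct markers, 295, 644 and 721 for 8 endothelial markers, 165, 346 and 235 for 8 macrophage markers, 32.8, 46.1 and 84.0 for 9 lymphocyte markers and 7519, 6674 and 5015 for 4 delta- and PP-cell markers. Some sums rest largely on 1 gene: Ighm gave 1330 of 1696 lymphocyte reads in HFD_CGP. In ND Cd79a gave 407 of 633 lymphocyte reads and Rgs5 2755 of 3223 stromal reads. In HFD_CGP against HFD_DMSO 3 lymphocyte markers were called lower (Cd3d, Cd3e and Ltb), 1 higher (Ighm), and 5 were not called. Of these lists, 1 acinar marker in HFD_CGP and 1 lymphocyte marker in ND had no read. In bulk RNA, fewer cells of a type and less RNA per cell cannot be told apart, and the part of these cell types in the results below was not tested. With 1 library a group, the deposited p-values compare libraries under a spread that was assumed and not measured, and the 95% intervals given here cover counting error only.

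Levels are given as CPM per kilobase of exon, with libraries scaled by trimmed mean of M-values (TMM). The length is that of all exons of a gene, which can exceed its longest transcript, as in Eif4e2 (7497 against 3473 bases). The order of members within a library depends on this choice, and fold changes between libraries do not. By this measure Eif4e was the most abundant member in ND and held place 5 in both high-fat libraries. In ND the order ran from Eif4e at 19.3 through Eif4ebp1 at 11.7, Mknk1 at 10.4, Eif4e3 at 8.90, Eif4ebp2 at 6.90 and Mknk2 at 6.37 to Eif4e2 at 3.05 and Eif4ebp3 at 0.348. The counting intervals of Eif4ebp1 and Mknk1, of Mknk1 and Eif4e3, and of Eif4ebp2 and Mknk2 overlapped. In HFD_DMSO Eif4ebp1 came first at 18.9 and Mknk2 second at 15.2, followed by Mknk1 and Eif4ebp2, whose intervals overlapped. There Eif4e at 5.61, Eif4e2 at 4.97 and Eif4e3 at 4.85 lay so close that the intervals of neighbours overlapped. In HFD_CGP Eif4ebp1 was again first, at 32.4. Eif4ebp2 at 16.6 and Mknk1 at 15.9 came next with overlapping intervals, and then Mknk2 at 13.7, Eif4e at 9.68, Eif4e3 at 8.04 and Eif4e2 at 5.0, each apart from the next.

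**Figure D1:**
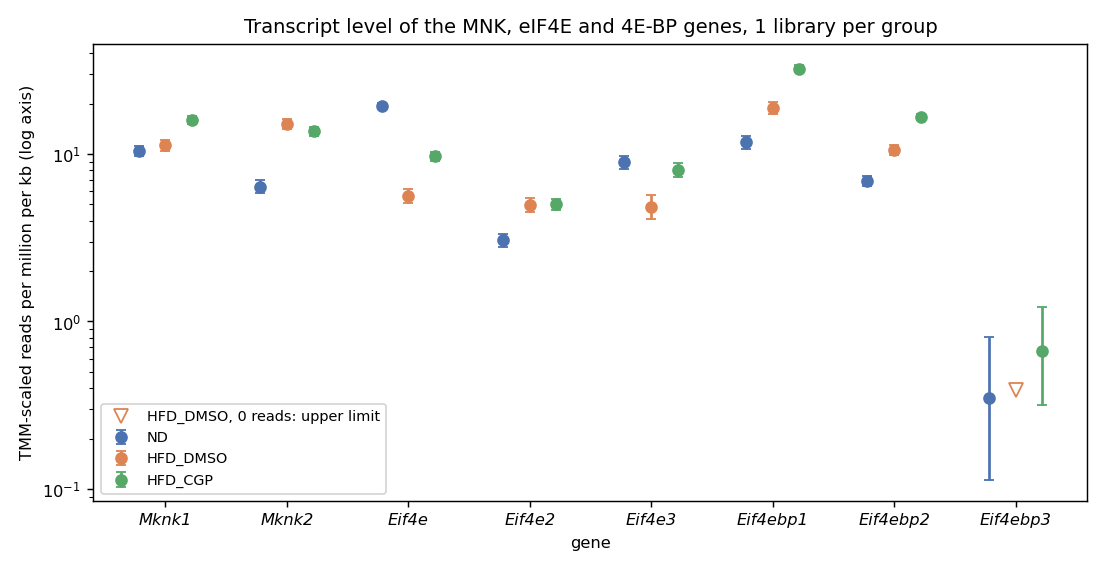
Level of each of the 8 genes in the ND, HFD_DMSO and HFD_CGP libraries, in TMM-scaled CPM per kilobase of exon, with 95% Poisson counting intervals as bars. Eif4e stands at 19.3 in ND against 5.61 in HFD_DMSO, and Eif4ebp1 at 11.7 in ND against 32.4 in HFD_CGP.

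Summed by role, the cap-binding genes were highest in ND and the binding proteins were highest in HFD_CGP. The level summed over the 3 cap-binding genes was 31.3 in ND, 15.4 in HFD_DMSO and 22.7 in HFD_CGP. The 3 binding proteins summed to 19.0, 29.4 and 49.6 in the same order, and the kinases to 16.8, 26.4 and 29.6. Scaling by library totals kept each of these orders, with the binding proteins at 21.4, 22.8 and 56.9 and the kinases at 18.9, 20.5 and 33.9. No test applies to these sums, and they carry no correction for transcript GC content, which is treated below. Eif4e, of low GC content, made up 61.8% of the cap-binding sum in ND. With the GC offset described below, HFD_CGP over ND had a log2 fold change of -0.24 for Eif4e, 0.73 for Eif4e2 and 0.29 for Eif4e3. Whether ND still leads the cap-binding sums under that offset was not tested.

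The comparison of HFD_DMSO with ND shows the module under the high-fat diet with vehicle. The adjusted p was under 0.05 for 2 of the 8 genes in the authors' deposited table: Eif4e fell and Mknk2 rose. Of all 22899 genes tested, 25.8% passed (12.6% higher and 13.2% lower), so 2 of 8 is close to the background. Over the 7 genes with at least 100 normalized counts the median log2 fold change was 0.61, against -0.12 over the 11263 such genes.

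Among the kinases, Mknk2 had 478 reads in ND, 745 in HFD_DMSO and 1075 in HFD_CGP, where the ND library is the low one. Mknk2 encodes the MNK form known for high basal activity. Its log2 fold change in the authors' deposited table was 1.25 for HFD_DMSO over ND (counting interval 1.08 to 1.42), with an adjusted p of 0.0177. Mknk1, whose kinase depends more on upstream MAP kinase signals, had 906 reads in ND, 641 in HFD_DMSO and 1447 in HFD_CGP. Its log2 fold change there was 0.11 (counting interval -0.04 to 0.26), with an adjusted p of 0.900, and with scaling by library totals it became -0.43. With that scaling the median over all genes moved by -0.54 and the Mknk2 value, 0.71, no longer passed, with an edgeR adjusted p of 0.197.

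The gene span is chr10:80665327-80678112 on the minus strand for Mknk2 and chr4:115839198-115879250 on the plus strand for Mknk1, equal in the deposited tables and in GENCODE M21. The 250 bases before a RefSeq start of Mknk2 (GRCm38.p6, chr10:80676294-80676543, minus strand) are shown because Mknk2 lies among the genes of highest GC content. The window lies inside the gene span and outside annotated exons, and 68.4% of it is G or C. The capitals mark GGGCGG on either strand, the core of a GC box, at positions -184 and -56 from the start.
Mknk2: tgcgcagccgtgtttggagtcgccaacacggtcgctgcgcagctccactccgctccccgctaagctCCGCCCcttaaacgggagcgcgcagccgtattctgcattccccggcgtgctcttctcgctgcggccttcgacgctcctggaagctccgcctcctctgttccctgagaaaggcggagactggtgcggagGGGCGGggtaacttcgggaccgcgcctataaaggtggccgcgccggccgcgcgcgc
GGGCGG on either strand was found in 32.74% of the 32851 mouse promoter windows of this length, whose median GC content was 52.4%.

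Eif4e, the cap-binding subunit that MNK phosphorylates, had 2241 reads in ND, 426 in HFD_DMSO and 1174 in HFD_CGP. The HFD_DMSO library is the lowest and HFD_CGP lies between the other libraries. In the authors' deposited table its log2 fold change for HFD_DMSO over ND was -1.78 (counting interval -1.94 to -1.63), with an adjusted p of 0.000442. This is a level 3.44-fold lower in HFD_DMSO.

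Eif4e3, a relative that binds the cap in another way, had 432, 154 and 408 reads in ND, HFD_DMSO and HFD_CGP, also lowest in HFD_DMSO. Its log2 fold change in the authors' deposited table was -0.88 (counting interval -1.15 to -0.61), with an adjusted p of 0.128. With library totals it was -1.42 and passed, with an edgeR adjusted p of 0.00642. Its exons share 373 bases with the gene Gm20696 on the same strand, which had 2 reads at most. Eif4e2, known as 4EHP, a cap-binding protein that represses translation, had 441, 471 and 757 reads. Its log2 fold change was 0.71 (counting interval 0.52 to 0.90), with an adjusted p of 0.223 in the authors' deposited table.

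Eif4e (chr3:138526179-138559696, plus strand) and Mknk1 were the members whose promoter windows held CACGTG, the E-box that Myc and related factors bind. Of the 8 genes, 5 had a RefSeq promoter window, and CACGTG occurred in 6.021% of all windows. The 30 bases around each site are shown for reference. Myc itself rose in HFD_DMSO over ND (2.80, below), where Eif4e had -1.78 and Mknk1 0.11. Binding of Myc was not measured, and its part in these levels was not tested. The Eif4e sites lie at positions -228 and -64 from one of its RefSeq starts, at chr3:138527028-138527057 and chr3:138527192-138527221, and the Mknk1 site at position -70, at chr4:115839116-115839145, all on the plus strand of GRCm38.p6 with the motif in capitals.
Eif4e, distal: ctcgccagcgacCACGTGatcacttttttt
Eif4e, proximal: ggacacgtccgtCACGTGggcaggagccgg
Mknk1: cttgcttctcgcCACGTGtggccctcgggg

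The binding proteins gave no call in HFD_DMSO against ND. Eif4ebp1 had 496 reads in ND, 523 in HFD_DMSO and 1435 in HFD_CGP, and Eif4ebp2, the form known for its role in the brain, had 770, 770 and 1939. For HFD_DMSO over ND the authors' deposited table gave a log2 fold change of 0.69 for Eif4ebp1 (counting interval 0.51 to 0.87) with an adjusted p of 0.238. Eif4ebp2 had 0.61 (counting interval 0.46 to 0.76) with an adjusted p of 0.302 in the authors' deposited table. Scaled by library totals these values were 0.15 and 0.07. Eif4ebp3, which shares 501 exon bases with an overlapping gene on the same strand, had 5, 0 and 10 reads. The counting intervals of its 3 levels overlapped, and the adjusted p for HFD_DMSO over ND was 0.293 in the authors' deposited table.

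**Figure D2:**
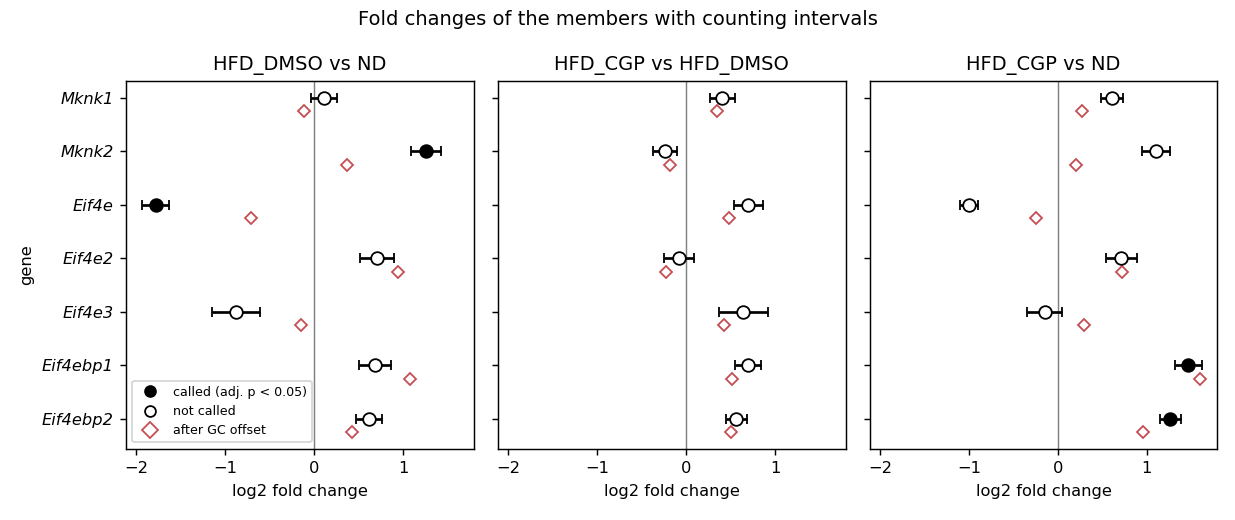
Log2 fold change of 7 of the 8 genes, without Eif4ebp3, in the 3 comparisons, with 95% counting intervals as bars. Filled points mark genes with an adjusted p under 0.05 in the authors' deposited table. Open diamonds give the values after the GC offset described below. Eif4e (-1.78) and Mknk2 (1.25) are filled for HFD_DMSO over ND, no gene is filled for HFD_CGP over HFD_DMSO, and Eif4ebp1 (1.47) and Eif4ebp2 (1.27) are filled for HFD_CGP over ND.

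The comparison of HFD_CGP with HFD_DMSO addresses the MNK inhibitor on the high-fat diet. None of the 8 genes passed in the authors' deposited table, where 6.35% of 22208 genes passed (1.4% higher and 4.95% lower). Eif4ebp3, on 10 reads against 0, had an unadjusted p of 0.0127 in the authors' deposited table. The share of all genes that reach such a p before adjustment was not computed. For the kinases that the compound inhibits, the log2 fold change was 0.41 for Mknk1 (counting interval 0.27 to 0.55, adjusted p = 0.724 in the authors' deposited table). Mknk2 had -0.24 (counting interval -0.37 to -0.1, adjusted p = 0.834 in the authors' deposited table), which turned to 0.42 with library totals.

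Eif4e had a log2 fold change of 0.70 for HFD_CGP over HFD_DMSO (counting interval 0.54 to 0.86), with an adjusted p of 0.418 in the authors' deposited table. Eif4e3 had 0.64 (adjusted p = 0.497 in the authors' deposited table) and Eif4e2 -0.08 (adjusted p = 0.993), the latter turning to 0.57 with library totals. Eif4ebp1 had 0.69 (counting interval 0.55 to 0.84) and Eif4ebp2 0.57 (counting interval 0.45 to 0.69), with adjusted p of 0.425 and 0.546 in the authors' deposited table. Eif4ebp3 had 0 reads in HFD_DMSO and 10 in HFD_CGP, with overlapping counting intervals and an adjusted p of 0.130 in the authors' deposited table. Scaling by library totals, which moves the median of all genes by 0.65, put 5 of the 8 past the edgeR threshold: Eif4e, Eif4e3 and all 3 binding proteins. The same scaling raised the share of all genes past it to 17.5%.

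The comparison of HFD_CGP with ND shares the ND library with the first comparison and the HFD_CGP library with the second. Eif4ebp1 and Eif4ebp2 rose, which makes 2 of 8 in the authors' deposited table against 8.93% of 23063 genes (4.57% higher and 4.36% lower). The log2 fold change of Eif4ebp1 was 1.47 (counting interval 1.32 to 1.62, adjusted p = 0.0123), and that of Eif4ebp2 was 1.27 (counting interval 1.15 to 1.39, adjusted p = 0.0352), both in the authors' deposited table. For both genes the HFD_CGP library stands above the others, and their counting intervals do not overlap with those of ND or HFD_DMSO.

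In the same comparison the authors' deposited table gave 1.1 for Mknk2 (adjusted p = 0.0764) and 0.61 for Mknk1 (adjusted p = 0.386). Eif4e had -1.0 (counting interval -1.1 to -0.90, adjusted p = 0.111 in the authors' deposited table). Eif4e2 had 0.71, Eif4e3 -0.15 and Eif4ebp3 0.92, with adjusted p of 0.304, 0.916 and 0.663 in the authors' deposited table. Over the 7 genes with at least 100 normalized counts the median was 0.71, against 0.03 over 11399 such genes.

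Eif4ebp1 lies at chr8:27260329-27276674 on the plus strand and Eif4ebp2 at chr10:61428491-61452661 on the minus strand. The 250 bases before the RefSeq start of Eif4ebp2 (GRCm38.p6, chr10:61452670-61452919, minus strand) are shown as the promoter window of a binding protein that rose. The window is 70.0% G or C, and GGGCGG, in capitals on either strand, lies at positions -215 and -46 from the start.
Eif4ebp2: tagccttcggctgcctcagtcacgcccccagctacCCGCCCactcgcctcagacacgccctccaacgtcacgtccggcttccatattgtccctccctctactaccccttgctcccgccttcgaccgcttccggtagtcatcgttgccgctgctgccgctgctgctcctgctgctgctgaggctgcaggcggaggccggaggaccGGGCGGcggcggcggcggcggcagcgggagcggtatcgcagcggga

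A ratio of members within a library does not depend on the scaling between libraries. The balance of Eif4ebp1 to Eif4e, per kilobase, was 0.606 in ND (counting interval 0.548 to 0.668), 3.36 in HFD_DMSO (2.95 to 3.83) and 3.34 in HFD_CGP (3.09 to 3.62). The high-fat libraries were alike in this ratio and stood 5.55-fold and 5.52-fold above ND, the library they share as reference. Eif4ebp2 to Eif4e ran the same way, at 0.357, 1.88 and 1.72. Reads of Eif4ebp1 and Eif4ebp2 kept a ratio of 1.70, 1.79 and 1.95 per kilobase, with overlapping counting intervals.

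The ratio of Mknk2 to Mknk1 per kilobase was 0.610 in ND (counting interval 0.545 to 0.683), 1.34 in HFD_DMSO (1.21 to 1.5) and 0.859 in HFD_CGP (0.793 to 0.931). Mknk2 thus made up 37.9%, 57.3% and 46.2% of the kinase reads per kilobase of exon. With that length, HFD_DMSO was the library in which it outnumbered Mknk1. All exons of Mknk1 and Mknk2 cover 4502 and 3892 bases, while their longest transcripts have 2575 and 3439. Which kinase gene leads in HFD_DMSO thus depends on the length used. The repressive Eif4e2 stood at 0.158 of Eif4e in ND, at 0.886 in HFD_DMSO and at 0.517 in HFD_CGP, with intervals that do not overlap. Here too the level depends on length: all exons cover 7497 bases in Eif4e2 and 6008 in Eif4e, and the longest transcripts 3473 and 4991. Folds of a ratio between libraries do not depend on it. No replicate stands behind these ratios.

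**Figure D3:**
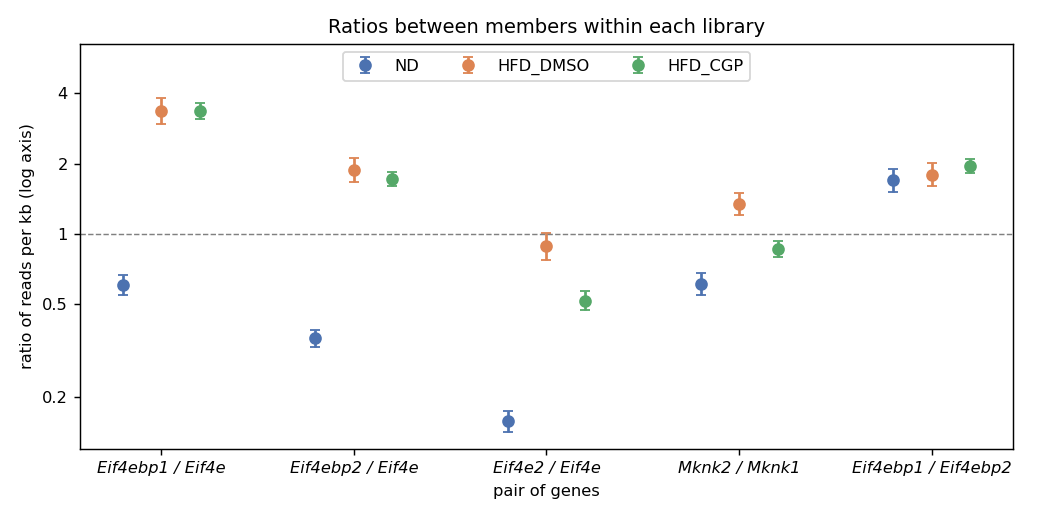
Ratio of reads per kilobase of exon between pairs of the genes within each library, on a log axis, with 95% exact binomial counting intervals as bars. Eif4ebp1 to Eif4e stands at 0.606 in ND and at 3.36 and 3.34 in the high-fat libraries, while Eif4ebp1 to Eif4ebp2 stays between 1.70 and 1.95.

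Transcript GC content moved with these results. In HFD_DMSO over ND, the median log2 fold change of genes with at least 100 normalized counts ran from -1.12 in the lowest of 10 equal bins of GC content to 0.88 in the highest, and in HFD_CGP over ND from -0.81 to 0.90. In HFD_CGP over HFD_DMSO it ran from 0.20 to -0.08. Eif4e has 40.5% GC in its longest transcript, with 7.53% of genes lower, and Mknk2 has 60.3%, with 96.25% of genes lower. The other members lie between 45.1% (Eif4e3) and 53.5% (Eif4ebp3).

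After an offset for a smooth curve on GC content, Eif4e in HFD_DMSO over ND had a log2 fold change of -0.71 with an edgeR adjusted p of 0.217, and Mknk2 had 0.37 with an edgeR adjusted p of 0.544. Neither call thus held with the offset, under which 21.1% of all genes passed, against 29.9% for the same likelihood ratio test without an offset, which called both genes. Eif4ebp1 had 1.07 with an edgeR adjusted p of 0.0522. In HFD_CGP over ND, Eif4ebp1 had 1.60 after the offset and passed with an edgeR adjusted p of 0.00751, and 5.12% of all genes did. Eif4ebp2 had 0.96 with an edgeR adjusted p of 0.167 and lost its call. The ratio of Eif4ebp1 to Eif4e stood 3.43-fold (HFD_DMSO) and 3.59-fold (HFD_CGP) above ND after the offset, and that of Mknk2 to Mknk1 1.41-fold and 0.959-fold. The offset brought Eif4ebp2 to Eif4e from 5.26-fold to 2.18-fold above ND in HFD_DMSO and from 4.81-fold to 2.30-fold in HFD_CGP. It brought Eif4e2 to Eif4e from 5.62-fold to 3.13-fold and from 3.28-fold to 1.96-fold. Eif4ebp1 to Eif4ebp2 went from 1.05-fold to 1.57-fold of ND in HFD_DMSO and from 1.15-fold to 1.56-fold in HFD_CGP.

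**Figure D4:**
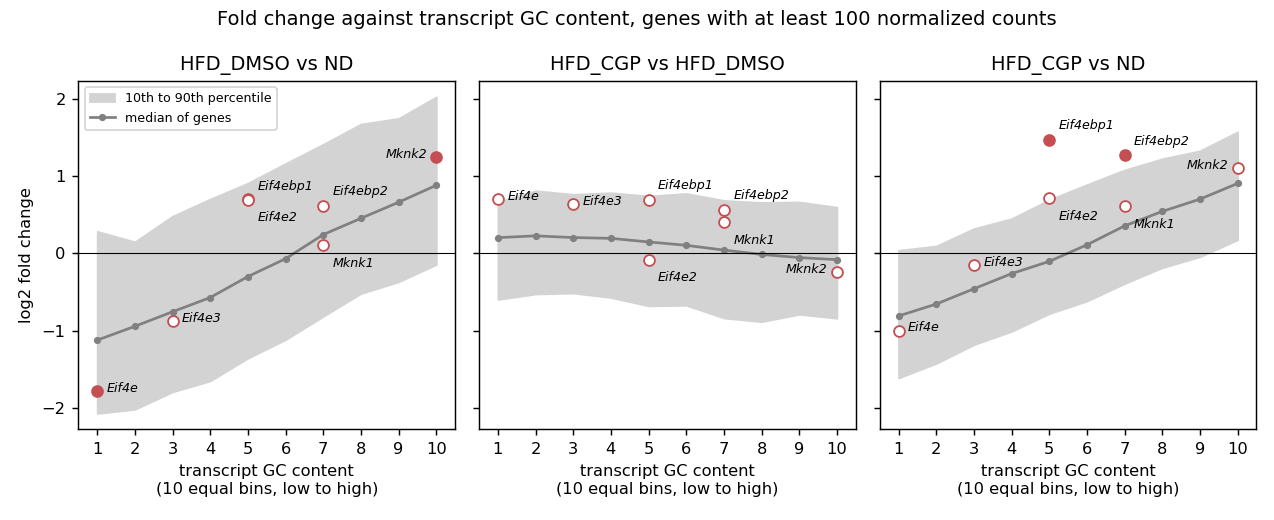
Log2 fold change against transcript GC content in 10 equal bins for the 3 comparisons, with the median and the 10th to 90th percentile of all genes with at least 100 normalized counts in grey and 7 of the 8 genes as points, filled for calls of the authors' deposited table at 0.05. Eif4e in the lowest bin and Mknk2 in the highest lie on the side to which the median leans for HFD_DMSO over ND. For HFD_CGP over ND, Eif4ebp1 (1.47), Eif4ebp2 (1.27) and Eif4e2 (0.71) lie above the 90th percentile of their bins.

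The count of members called moved with the assumed spread between libraries, and so did the background. At a coefficient of variation of 0.1, 6, 5 and 6 of the 8 genes passed in HFD_DMSO over ND, HFD_CGP over HFD_DMSO and HFD_CGP over ND, where 44.1%, 21% and 32.4% of all genes did. At 0.3 none of the 8 passed, beside 9.47%, 2.37% and 1.11% of all genes, and at 0.4 none passed beside 2.3%, 0.77% and 0.351%. Scaling by library totals gave 2, 5 and 2 of the 8, beside 31.8%, 17.5% and 9.12%.

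With the GC offset 0, 1 and 1 of the 8 passed in the same order of comparisons, beside 21.1%, 9.93% and 5.12% of all genes. With an offset for length 3, 1 and 2 passed beside 29%, 9.18% and 11.2%, and with both offsets 0, 1 and 1 beside 20.6%, 9.21% and 4.88%. The likelihood ratio test behind these offsets, run without one, gave 2, 1 and 2 beside 29.9%, 9.19% and 11.7%. The gene called in HFD_CGP over HFD_DMSO by each of these 4 fits was Eif4ebp3, which rests on 0 and 10 reads.

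Other scalings and filters kept the deposited counts of 2, 0 and 2 of the 8. The background was 25.8%, 6.39% and 9.33% with DESeq2 size factors and 25.8%, 6.36% and 8.92% with TMM without insulin, acinar and mitochondrial genes. It was 34.4%, 9.03% and 13.6% with a filter of 10 reads over the pair, and 23.3%, 5.7% and 8.36% with no filter. By size alone, 2, 0 and 3 of the 7 genes with at least 100 normalized counts had a log2 fold change of at least 1 in either direction, beside 38%, 9.99% and 22.6% of all such genes.

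The genes whose pattern over the 3 libraries was most like a member's were named by their distance in centred log2 scaled reads, among 9244 protein-coding genes. For Eif4e these were Mbtps2, Tmem30a and Rbl2, and Mbtps2, with 430, 81 and 224 reads, lay 0.00433 away. For Mknk2 they were Dock6, Nelfb and Hs1bp3, and for Mknk1 Brd3os, Usp35 and 9530068E07Rik. For Eif4ebp1 they were Shb, Dcaf15 and Map7d1. Within a distance of 0.2 lay 550 genes for Mknk1, 344 for Mknk2, 244 for Eif4e and 39 for Eif4ebp1. With 3 libraries such likeness is thus not rare for the former genes, and it is rarer for Eif4ebp1. Transcript GC content was 40.5% for Eif4e and 40.0%, 39.2% and 47.0% for its nearest genes in the order named. It was 60.3% for Mknk2 and 58.4%, 55.2% and 55.2% for its nearest genes. For Mknk1 it was 52.7% beside 55.2%, 59.1% and 48.9%, and for Eif4ebp1 48.2% beside 61.4%, 58.7% and 62.55%.

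Partners of eIF4E were read from lists of genes. Of 10 genes of the cap-binding complex, 2 fell in HFD_DMSO against ND in the authors' deposited table and none rose: the helicase Eif4a2 (log2 fold change -1.55, adjusted p = 0.00215) and Eif4g2 (-1.16, adjusted p = 0.0265), a scaffold that lacks an eIF4E-binding site. Over all genes 13.2% were lower and 25.8% were called either way, so 2 of 10 is near the background. None of the 10 passed in the other comparisons. The scaffold Eif4g1, on which MNK docks, had -0.68, 0.68 and 0.09 for HFD_DMSO over ND, HFD_CGP over HFD_DMSO and HFD_CGP over ND. The list's median was -0.23 in the first comparison, against -0.12 over all genes. Of 8 other partners of eIF4E and its relatives, Cyfip1 (-1.23) and Lrpprc (-1.11) fell in HFD_DMSO against ND in the authors' deposited table. Zfp598 (1.25) rose in HFD_CGP against ND in the same source. Over all genes 13.2% were lower in the former comparison and 4.57% higher in the latter. None of these calls held with the GC offset.

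Of 17 genes of the MAP kinase route to MNK, 4 rose and 5 fell in HFD_DMSO against ND in the authors' deposited table, beside 12.6% higher and 13.2% lower over all genes. The p38 forms Mapk11 (2.23) and Mapk13 (2.22), the ERK activator Map2k2 (2.04) and Hras (1.34) rose. Among those that fell were Braf (-1.79) and Map2k4 (-1.25). With the GC offset 3 of the 4 that rose still passed and none of the 5 that fell did, 1 of which changed sign, and with library totals the call of Hras was lost. In HFD_CGP against HFD_DMSO only Map2k6 passed (-1.56, from 85 to 49 reads, not called with library totals). Over all genes 1.4% were higher and 4.95% lower there. Map2k2, Mapk13 and Mapk11 rose in HFD_CGP against ND, by 1.62, 1.52 and 1.42 on the log2 scale, and lost their calls with the GC offset. These 3 of 17 stood beside 4.57% higher and 4.36% lower over all genes. Mapk14, the main p38 form, had 0.66, 0.29 and 1.03 in the 3 comparisons and did not pass.

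Of 13 genes of the mTORC1 branch, which acts on the 4E-BPs, Rps6kb2 stood out in the libraries of this study. This S6 kinase gene had 23 reads in ND, 56 in HFD_DMSO and 598 in HFD_CGP. In the authors' deposited table its log2 fold change was 1.89 (adjusted p = 0.00519) for HFD_DMSO over ND, 2.65 (adjusted p = 2.06e-06) for HFD_CGP over HFD_DMSO and 4.63 (adjusted p = 1.53e-15) for HFD_CGP over ND. The calls that involve HFD_CGP held with the GC offset. Its exons share 829 bases with Ptprcap on the opposite strand, which had 4 reads at most. Some other called genes overlap opposite-strand genes that had more reads than Ptprcap, given here for ND, HFD_DMSO and HFD_CGP. Cyfip1 shares 1316 exon bases with Nipa2 (545, 69 and 184 reads) and Ccnd1 1100 with LTO1 (523, 207 and 563). Tsc2 shares 693 with Pkd1 (2636, 720 and 3411). The strand setting is not given, and the part of such overlaps in these calls was not tested. The mTORC1 brake Tsc2 rose in HFD_DMSO (1.18) and in HFD_CGP (1.35) against ND, and the activator Rheb fell in HFD_DMSO (-1.49), all without a call after the GC offset, and Tsc2 in HFD_DMSO also without one with library totals. In all, 2 of the 13 rose and 1 fell in HFD_DMSO against ND (12.6% and 13.2% of all genes), 1 rose in HFD_CGP against HFD_DMSO (1.4%) and 2 rose in HFD_CGP against ND (4.57%). Mtor itself had -0.15, 0.23 and 0.17 and did not pass.

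Other MNK substrates and mRNAs known to depend on eIF4E were read out next. Of 6 genes listed as other substrates, the receptor-signalling brake Spry1 rose in HFD_DMSO (2.71) and HFD_CGP (2.29) against ND. It had 35, 150 and 180 reads in ND, HFD_DMSO and HFD_CGP. Its relative Spry2, on the same list, did not pass. Spry2 had 0.34, 0.59 and 1.02 for HFD_DMSO over ND, HFD_CGP over HFD_DMSO and HFD_CGP over ND. The phospholipase Pla2g4a, at 12, 30 and 7 reads, rose in HFD_DMSO against ND and fell in HFD_CGP against HFD_DMSO, and Pspc1 (-1.36) fell in HFD_DMSO against ND, all in the authors' deposited table. Of 13 tested mRNAs whose translation is known to depend on eIF4E, the transcription factor Myc rose in HFD_DMSO (2.80) and HFD_CGP (2.34) against ND, with 60, 274 and 318 reads. In HFD_DMSO against ND Pim1 (1.99) also rose, and Nbn (-1.24) and Ccnd1 (-1.12) fell. Birc5, at 33 and 12 reads, fell in HFD_CGP against HFD_DMSO. The Myc, Pim1, Spry1, Pla2g4a, Ccnd1 and Birc5 calls held with the GC offset, and those of Pspc1 and Nbn did not. With library totals the Birc5 call and the Pla2g4a call in HFD_DMSO against ND were lost. In HFD_DMSO against ND 2 of the 6 listed substrates rose and 1 fell, and 2 of 13 of these mRNAs rose and 2 fell, beside 12.6% higher and 13.2% lower over all genes. In HFD_CGP against HFD_DMSO 1 of 6 and 1 of 13 fell, beside 4.95% lower over all genes. In HFD_CGP against ND 1 of 6 and 1 of 13 rose, beside 4.57% higher over all genes. mRNA levels do not show how these messages were translated.

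Eif4ebp1 is known as a target of ATF4, so 18 other genes of the ATF4 program were set beside it. In HFD_CGP against ND 6 rose and none fell in the authors' deposited table, beside 4.57% higher and 4.36% lower over all genes, with Chac1 (2.13), Cebpb (1.60), Trib3 (1.56) and Gpt2 (1.55) leading, and the median was 0.66 against 0.03 over all genes. After the GC offset 2 of the 6 still passed, Chac1 and Gpt2. In HFD_DMSO against ND 5 rose, Gpt2 (1.84), Ppp1r15a (1.58), Chac1 (1.5), Ddit3 (1.21) and Cebpb (1.15), and Vldlr (-1.54) fell, beside 12.6% and 13.2% of all genes. With library totals 2 of those 5 still passed, Gpt2 and Ppp1r15a, and with the GC offset 2 did, Gpt2 and Ddit3, while Vldlr lost its call. In HFD_CGP against HFD_DMSO the amino acid transporter Slc7a5 rose (1.27, adjusted p = 0.0420 in the authors' deposited table). It was 1 of 18, beside 1.4% higher over all genes. Atf4 itself had 0.37, 0.02 and 0.47 in the 3 comparisons and did not pass.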

How the data were processed

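RNA-seq of islets was made with Trizol extraction and the TruSeq kit from 1 ug of RNA, per the labels' protocols, with 3 libraries in 3 groups. Aligner, read counter, genome build and strand setting: not given in the sources used here. DESeq2 1.10.1 is named in the submitters' processing notes. The authors deposited 1 table per pair of groups, with a signal column per group (read counts scaled so that the pair shares a library size), the log2 fold change, and the p-value raw and adjusted over the table's genes. Lists of called genes were not used.

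Whole reads were recovered from these columns: 99.991% to 100% of values lay within 0.1 of a whole read. edgeR 4.0.16 in R 4.3.3 (exact test, TMM, fixed dispersion of 0.04, at least 2 reads over the pair) gave the deposited calls with 0 differences. This setting was found by recomputation and is an assumed coefficient of variation of 0.2. The fitting code was run on simulated counts drawn with this same spread and without a GC trend. That run cannot show whether a spread of 0.2 holds for these libraries, or whether the GC offset removes a GC trend. The design had assumed no particular unit, and no test over replicates was possible. Intervals are exact Poisson for levels and exact Clopper-Pearson for ratios, at 95%. A count of 0 allows 3 reads, which is 0.175, 0.184 and 0.170 CPM in ND, HFD_DMSO and HFD_CGP.

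Alternatives were library totals, DESeq2 1.42.0 size factors, TMM without insulin, acinar and mitochondrial genes, other filters, assumed spreads and pseudocounts, a fold threshold, and offsets for GC content or length (loess, span 0.3, likelihood ratio test). GC content is that of the longest GENCODE M21 transcript, found for 24079 of 24119 gene IDs, and coordinates of the 8 genes equal those of GENCODE M21 on GRCm38. Promoter windows are from RefSeq on GRCm38.p6.

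The 8 genes and the lists were chosen with earlier results of these data known. Named beside the 8 genes were the 3 nearest patterns of 4 genes and, from each list, up to 4 called genes per comparison by fold change with at least 100 normalized counts, plus those that complete a count of 5 or fewer. A few genes that did not pass were named for their role. Some genes of the lists are not reported here by name.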

Additional observations from a re-analysis of the deposited data

How the results depend on the processing

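Each group has 1 library, so no replicate could be left out. No paired analysis was possible because each group has 1 library. For HFD_DMSO over ND, where 2 of the 8 genes passed, 6 passed at an assumed coefficient of variation of 0.1, and 0 at 0.3, at 0.4, with the GC offset and with the GC and length offset. For HFD_CGP over HFD_DMSO, where 0 passed, 5 passed with library totals, 5 at 0.1, and 1 (Eif4ebp3) with the GC, the length or both offsets, with a fitted log2 fold change of at least 1, and with the likelihood ratio test without an offset, an alternative chosen after seeing the data. For HFD_CGP over ND, where 2 passed, 6 passed at 0.1, 0 at 0.3 and 0.4, and 1 (Eif4ebp1) with the GC offset or both offsets. DESeq2 size factors, TMM without insulin, acinar and mitochondrial genes and the filters kept the 3 counts. Direction reversed in 7 cases, none of them called: Mknk1 in HFD_DMSO over ND with library totals (-0.43), the GC offset (-0.12) and both offsets (-0.13), Mknk2 (0.42) and Eif4e2 (0.57) in HFD_CGP over HFD_DMSO with library totals, and Eif4e3 in HFD_CGP over ND with the GC offset (0.29) and both offsets (0.28). The other 328 values of single genes kept their direction: 289 kept their side of the threshold or interval, 24 came past it and 15 no longer passed. Library totals split the calls over all genes into 1600 higher and 5677 lower for HFD_DMSO over ND (2888 and 3023 as deposited) and 3209 and 679 for HFD_CGP over HFD_DMSO (311 and 1100 as deposited), and the GC offset into 3095 and 1743 for the former. Without length correction the ratio of Mknk2 to Mknk1 was 0.528, 1.16 and 0.743 in ND, HFD_DMSO and HFD_CGP, and that of Eif4ebp1 to Eif4e 0.221, 1.23 and 1.22. Except where the construction shows it, the cause was not tested.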
